A study of Homo sapiens with 8 samples.

Results

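The 8 genes described here carry the coding CAG repeats whose expansion causes polyglutamine disease: HTT, ATXN1, ATXN2, ATXN3, ATXN7, ATN1, TBP and CACNA1A. They were taken by symbol from the deposited tables of 23228 gene symbols. Each has 1 row in every table, with the status OK in all samples, and all 8 were among the 11434 genes tested. RNA sequencing of polyadenylated RNA was done in 2 human fibroblast lines, line 1 and line 2, which the labels describe as population controls. Cells grown in DMEM with fetal bovine serum were transfected, with Lipofectamine RNAiMAX, with siRNA to SUPT4H1 or with a control siRNA that has no target, in 2 samples per siRNA and line. The 4 SUPT4H1 siRNA samples thus stand against 4 control siRNA samples. Each line is 1 source of cells and the labels do not say that the replicates were grown apart, so p-values reflect only how these samples scatter, and that scatter may be technical.

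In each of these genes a run of CAG codons is translated into glutamine, and a run that grows beyond its normal range makes the protein toxic to neurons. HTT underlies Huntington's disease, ATN1 dentatorubral-pallidoluysian atrophy, and the others spinocerebellar ataxias. SUPT4H1 encodes SPT4, which together with SPT5 forms DSIF, an elongation factor that travels with RNA polymerase II. In yeast and in mouse neuronal cells, loss of SPT4 has been reported to lower transcription through expanded CAG repeats more than through short ones. The values here are sums over the whole gene and over both alleles. The repeat lengths of the lines were not analysed here, so no statement on an allele or on a repeat length can be drawn from them.

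The repeats themselves are shown first, since they are what the 8 genes share. Each entry gives the longest in-frame run of glutamine codons (CAG or CAA, in capitals) with 15 flanking bases on either side, read 5′ to 3′ on the coding strand from the GENCODE 29 coding transcript that holds it (GRCh38). They are reference sequences and not sequences of the cells studied.
HTT: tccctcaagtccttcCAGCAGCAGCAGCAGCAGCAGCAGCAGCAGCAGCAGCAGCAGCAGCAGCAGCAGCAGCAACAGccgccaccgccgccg
ATXN1: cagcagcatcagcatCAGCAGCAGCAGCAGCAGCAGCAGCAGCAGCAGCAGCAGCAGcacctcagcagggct
ATXN2: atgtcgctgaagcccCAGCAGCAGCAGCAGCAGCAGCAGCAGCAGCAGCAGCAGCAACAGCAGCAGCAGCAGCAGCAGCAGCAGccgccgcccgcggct
ATXN3: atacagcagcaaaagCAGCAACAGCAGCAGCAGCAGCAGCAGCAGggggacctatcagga
ATXN7: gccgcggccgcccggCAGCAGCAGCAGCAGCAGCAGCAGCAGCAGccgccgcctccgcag
ATN1: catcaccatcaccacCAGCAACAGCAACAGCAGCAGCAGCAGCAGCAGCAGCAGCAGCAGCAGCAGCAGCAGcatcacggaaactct
TBP: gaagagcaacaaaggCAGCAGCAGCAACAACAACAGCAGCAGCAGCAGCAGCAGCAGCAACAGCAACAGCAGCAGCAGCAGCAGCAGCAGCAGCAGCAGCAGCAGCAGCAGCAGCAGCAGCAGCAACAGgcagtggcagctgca
CACNA1A: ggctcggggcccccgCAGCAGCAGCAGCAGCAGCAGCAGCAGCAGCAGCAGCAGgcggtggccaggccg

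The reference runs differ in length and in purity. TBP has the longest, with 38 codons of which 6 are CAA, and ATXN3 and ATXN7 have the shortest, with 10 each. HTT has 21 codons with 1 CAA, ATXN2 has 23 with 1 CAA, ATN1 has 19 with 2 CAA, ATXN1 has 14, preceded by CAT codons among further CAG codons, and CACNA1A has 13. The runs also lie at different places in their genes. In HTT (chr4:3074877-3074939, exon 1 of 67) and ATXN2 (chr12:111598951-111599019, exon 1 of 25) the run starts 0.2 and 0.66 kb from the transcript start. In TBP (chr6:170561908-170562021, exon 3 of 8), ATN1 (chr12:6936717-6936773, exon 5 of 10) and ATXN7 (chr3:63912686-63912715, exon 2 of 13) it starts 7.58, 12.25 and 14.29 kb from the transcript start. The ATXN7 transcript that holds the run spans 105055 bases, less than the 138904 bases of its hg19 row. Its distance may thus differ from one taken from the gene start. In ATXN3 (chr14:92071011-92071040, exon 11 of 12) it starts 35.58 kb from the transcript start. In CACNA1A (chr19:13207859-13207897, exon 48 of 48) it lies 298.33 kb and in ATXN1 (chr6:16327636-16327677, exon 8 of 9) 433.78 kb from the transcript start. Not all coding transcripts hold a run of 10 or more glutamine codons in frame. Those that do are 10 of 22 for CACNA1A, 6 of 19 for ATXN2 and 1 of 5 for HTT. In ATXN3 they are 16 of 20, in ATXN7 and TBP 5 of 7, in ATXN1 2 of 3 and in ATN1 2 of 2. Gene-level values do not separate these transcripts from the others.

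SUPT4H1 itself was at 1.37 and 1.43 FPKM with SUPT4H1 siRNA and 25.6 and 25.6 FPKM with control siRNA in line 1, and at 1.69 and 1.74 FPKM with SUPT4H1 siRNA and 26.2 and 28.3 FPKM with control siRNA in line 2. FPKM are fragments scaled to transcript length and to the size of the library. Their sums lay between 288293 and 305680, and 11321 to 11447 rows in each sample were at 1 FPKM or above. All 10 fibroblast markers examined averaged 1 FPKM or more. Of the markers of other cell types, KRT10 and CD68 alone did. CD68, a lysosomal protein used as a macrophage marker, stood at 56.2 to 75.2 FPKM in SUPT4H1 siRNA samples and 43.0 to 48.8 FPKM in control siRNA samples. The other 4 leukocyte markers were at most 0.206 FPKM in every sample, CD3E being listed at 0. The summed leukocyte list was 56.4 to 75.5 FPKM in SUPT4H1 siRNA samples and 43.2 to 48.9 FPKM in control siRNA samples, and its part in the results below was not tested.

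Across the 8 genes, ATXN1 and CACNA1A fell after SUPT4H1 siRNA, ATN1 rose, and HTT, ATXN2, ATXN3, ATXN7 and TBP did not pass the test. The test was limma on log2(FPKM + 1) with the line as replicate block and Benjamini-Hochberg adjustment over all 11434 genes, at a threshold of 0.05. In this fit 42.1% of all genes passed, 26.9% as rises and 15.2% as falls, so 3 of 8 members (37.5%) is a share near that background. The members' median log2 change was -0.0082 and their median absolute change 0.0897, beside 0.0306 and 0.0906 over all genes tested. After scaling by median ratios, rises made up 50.1% of all calls in place of 63.9%, and the same 3 members passed in the same directions. With 4 samples set against 4 and no line term, 5.33% of all genes passed, 3.56% as rises and 1.78% as falls, and 0 of the 8 members did (limma). ATXN1 was the 1 member with an unadjusted p under 0.05 in that fit, and the share of all genes under that unadjusted threshold was not computed. By line, 1 member rose and 2 fell in line 2, where 42.9% of all genes passed (27% as rises, 15.9% as falls). The same 3 genes passed in the same directions in line 1, where 30.7% did (19% as rises, 11.6% as falls). All 8 members had the same sign of change in both lines, a share that was not computed over all genes. The line 1 signs of HTT, ATXN7 and TBP turned when SUPT4H1 siRNA line 1 replicate 1 was left out.

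**Figure D1:**
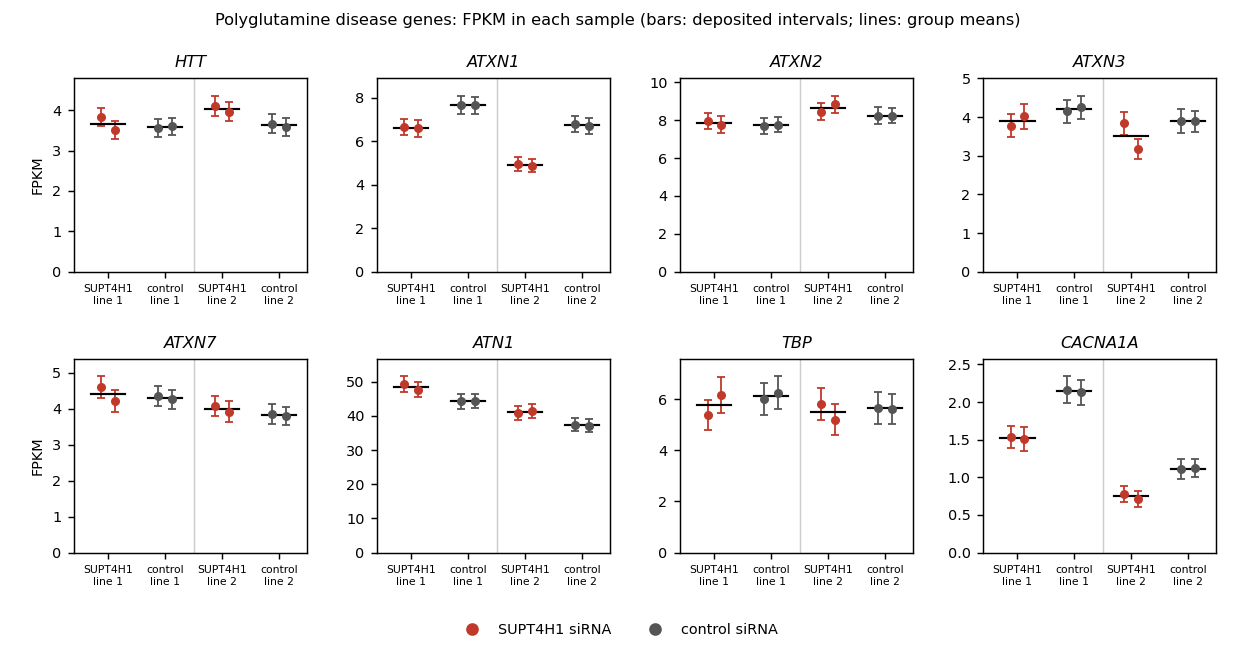
FPKM of each of the 8 genes in each sample, with the SUPT4H1 siRNA samples (red) left of the control siRNA samples (grey) within each line; bars are the deposited interval bounds and black lines the mean of the 2 samples. In ATXN1 and CACNA1A the SUPT4H1 siRNA samples and their intervals lie below the control siRNA samples in both lines, and in ATN1 they lie above, with some intervals that overlap.

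ATXN1 encodes ataxin-1, a nuclear protein that works with the repressor CIC in silencing target genes. The gene spans 462.4 kb (chr6:16299343-16761721 in hg19), the longest of the 8. ATXN1 was at 6.64 and 6.58 FPKM with SUPT4H1 siRNA and 7.67 and 7.64 FPKM with control siRNA in line 1, and at 4.95 and 4.87 FPKM with SUPT4H1 siRNA and 6.79 and 6.70 FPKM with control siRNA in line 2. All 4 SUPT4H1 siRNA samples were below all 4 control siRNA samples, which 16.5% of all genes tested match in either direction. Among the members ATXN1 alone was so ordered. The group means were 5.76 ± 0.98 and 7.20 ± 0.53 FPKM in SUPT4H1 and control siRNA samples (SD, n = 4 each). The log2 change was -0.29 (SE 0.04, limma adjusted p = 0.00071). Without the line term it was the same size and did not pass (adjusted p = 0.172). An exact permutation test within the lines gave p = 0.0556, 2-sided, the smallest that its 36 arrangements allow.

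The fall of ATXN1 was unequal in the lines. SUPT4H1 siRNA samples held 72.8% of the FPKM of control siRNA samples in line 2, against 86.3% for line 1, with log2 changes of -0.39 (SE 0.04, adjusted p = 2.7e-05) and -0.19 (SE 0.04, adjusted p = 0.004). The difference of the log2 changes, line 2 minus line 1, was -0.20 (SE 0.05, limma adjusted p = 0.0365), and 9.85% of all genes passed this test, 5.37% with a positive and 4.48% with a negative difference. Leaving out 1 sample ended this call in each of the 8 fits so made (adjusted p = 0.073 to 0.113), with differences of -0.21 to -0.19. ATXN1 was the only one of the 8 in which the difference between the lines passed with all samples.

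CACNA1A encodes the pore-forming subunit of the P/Q-type calcium channel, which triggers transmitter release in neurons and is best known from cerebellar Purkinje cells. The gene spans 300.0 kb (chr19:13317256-13617274 in hg19) and was the least abundant of the 8. CACNA1A was at 1.54 and 1.51 FPKM with SUPT4H1 siRNA and 2.16 and 2.13 FPKM with control siRNA in line 1, and at 0.777 and 0.715 FPKM with SUPT4H1 siRNA and 1.11 and 1.12 FPKM with control siRNA in line 2. SUPT4H1 siRNA samples were lower within each line, while the 4 and 4 samples together overlap, line 2 being lower under both siRNAs. The level after SUPT4H1 siRNA was 67.0% of control in line 2 and 71.0% in line 1. The log2 change was -0.30 (SE 0.04, limma adjusted p = 4.21e-04), a scale on which changes of such low values are understated, and it was -0.50 with a pseudocount of 0.1. It did not pass without the line term (adjusted p = 0.482). The exact permutation test gave p = 0.0556, again the smallest it allows. By line, log2 changes were -0.28 in line 2 (adjusted p = 0.00314) and -0.32 in line 1 (adjusted p = 0.00214), and their difference of 0.04 did not pass (adjusted p = 0.805, 95% interval -0.13 to 0.22).

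Since CACNA1A is known as a neuronal gene, neuron markers were looked up beside it. RBFOX3, SNAP25 and NEFL were below 0.1 FPKM in every sample. SYN1 reached 0.130 FPKM in SUPT4H1 siRNA samples and 0.179 FPKM in control siRNA samples, and SYT1 reached 0.649 and 0.303 FPKM. The 5 neuron markers summed to 0.167 to 0.876 FPKM in SUPT4H1 siRNA samples and 0.172 to 0.544 FPKM in control siRNA samples. In bulk RNA, fewer cells that express a gene and less of its RNA per cell cannot be told apart.

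ATN1 encodes atrophin-1, a nuclear corepressor, and its gene spans 17.9 kb (chr12:7033626-7051484 in hg19), the shortest of the 8. ATN1 was at 49.2 and 47.7 FPKM with SUPT4H1 siRNA and 44.3 and 44.4 FPKM with control siRNA in line 1, and at 40.8 and 41.5 FPKM with SUPT4H1 siRNA and 37.5 and 37.2 FPKM with control siRNA in line 2. SUPT4H1 siRNA samples were above control siRNA samples within each line, at 110.2% of control in line 2 and at 109.3% in line 1, and the deposited intervals overlap between some samples of each line. The log2 change was 0.13 (SE 0.02, limma adjusted p = 0.00147). Larger absolute changes were seen in 34.6% of all genes tested, against 9.45% for ATXN1 and 8.88% for CACNA1A. ATN1 had log2 changes of 0.14 in line 2 (adjusted p = 0.0034) and 0.13 in line 1 (adjusted p = 0.00777). It did not pass without the line term (adjusted p = 0.486), and the exact permutation test gave p = 0.0556, the smallest it allows. The line 1 call was lost without 1 control or 1 SUPT4H1 siRNA sample of that line (adjusted p up to 0.0551).

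HTT encodes huntingtin, a large scaffold protein of vesicle transport and autophagy, from a gene of 169.5 kb (chr4:3076237-3245687 in hg19). HTT was at 3.83 and 3.51 FPKM with SUPT4H1 siRNA and 3.56 and 3.60 FPKM with control siRNA in line 1, and at 4.11 and 3.97 FPKM with SUPT4H1 siRNA and 3.66 and 3.58 FPKM with control siRNA in line 2. The groups overlap in line 1 and do not in line 2, where 71.8% of all genes tested did not overlap either. The log2 change was 0.08 with a 95% interval of -0.01 to 0.16 (limma adjusted p = 0.139). In line 2 the log2 change was 0.12 (adjusted p = 0.0648) and in line 1 it was 0.03 (adjusted p = 0.722), and the difference did not pass (adjusted p = 0.433). Without SUPT4H1 siRNA line 1 replicate 2 the change over both lines was 0.10 and passed (adjusted p = 0.0426). The antisense row HTT-AS overlaps the HTT row by 5 bases and stood at 0 to 0.102 FPKM.

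**Figure D2:**
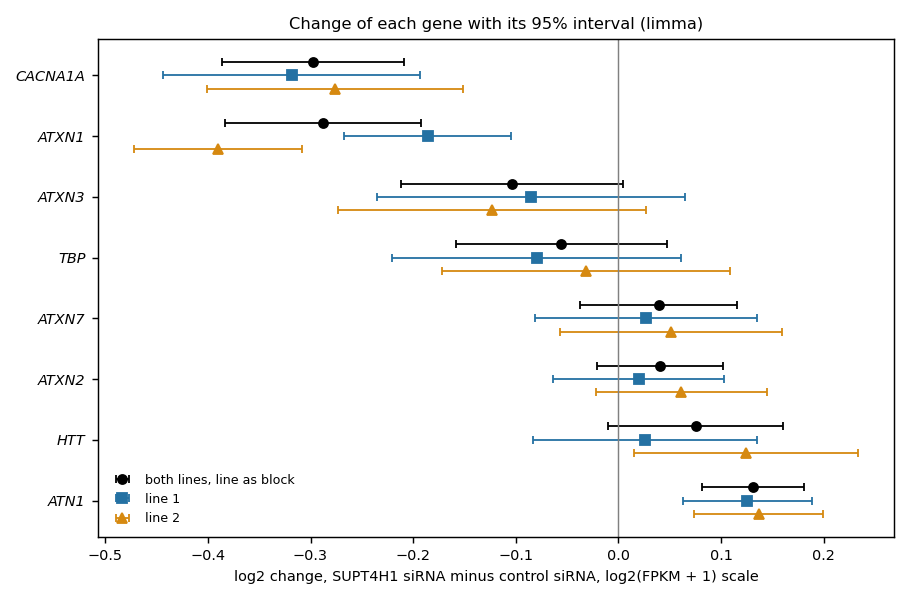
Log2 change of each gene on the log2(FPKM + 1) scale, SUPT4H1 siRNA minus control siRNA, with 95% intervals from limma, for both lines with the line as block (black circles), line 1 (blue squares) and line 2 (orange triangles). The intervals of CACNA1A, ATXN1 and ATN1 stay off 0 in each of the 3 estimates, and those of ATXN3, TBP, ATXN7 and ATXN2 include 0 in each.

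ATXN3 encodes ataxin-3, a deubiquitinase, from a gene of 48.1 kb (chr14:92524896-92572965 in hg19). ATXN3 was at 3.78 and 4.02 FPKM with SUPT4H1 siRNA and 4.14 and 4.25 FPKM with control siRNA in line 1, and at 3.84 and 3.17 FPKM with SUPT4H1 siRNA and 3.89 and 3.89 FPKM with control siRNA in line 2. SUPT4H1 siRNA samples were lower within each line, an order that 45.3% of all genes tested show in one direction or the other. Its log2 change was -0.10 with a 95% interval of -0.21 to 0.0041 (limma adjusted p = 0.11). The exact permutation test gave p = 0.0556, the smallest it allows, which any gene so ordered in both lines reaches. SUPT4H1 siRNA line 2 replicate 1 and replicate 2 are far apart for this gene. Without replicate 1 the change was -0.14 and passed (adjusted p = 0.0362), and without replicate 2 it was -0.057.

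TBP encodes the TATA-binding protein, which nucleates transcription initiation, from a gene of 18.5 kb (chr6:170863421-170881958 in hg19). TBP was at 5.38 and 6.17 FPKM with SUPT4H1 siRNA and 6.03 and 6.27 FPKM with control siRNA in line 1, and at 5.81 and 5.20 FPKM with SUPT4H1 siRNA and 5.66 and 5.62 FPKM with control siRNA in line 2. The groups overlap in both lines. Its log2 change was -0.06 with a 95% interval of -0.16 to 0.05 (limma adjusted p = 0.355). TBP had deposited intervals with half-widths of 10.1 to 11.7% of the value. Among the members only those of CACNA1A reached further, up to 14.8%. Sample by sample, they were wider than those of TBP in line 2 and narrower in line 1.

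ATXN2 encodes ataxin-2, an RNA-binding protein of stress granules, from a gene of 147.5 kb (chr12:111890018-112037480 in hg19). ATXN2 was at 7.94 and 7.75 FPKM with SUPT4H1 siRNA and 7.70 and 7.76 FPKM with control siRNA in line 1, and at 8.44 and 8.83 FPKM with SUPT4H1 siRNA and 8.23 and 8.24 FPKM with control siRNA in line 2. The groups overlap in line 1 and not in line 2. Its log2 change was 0.04 with a 95% interval of -0.02 to 0.10 (limma adjusted p = 0.262). After scaling by median ratios it was 0.0086.

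ATXN7 encodes ataxin-7, which anchors the deubiquitinase module of the SAGA coactivator, from a gene of 138.9 kb (chr3:63850233-63989136 in hg19). ATXN7 was at 4.61 and 4.23 FPKM with SUPT4H1 siRNA and 4.36 and 4.26 FPKM with control siRNA in line 1, and at 4.07 and 3.92 FPKM with SUPT4H1 siRNA and 3.85 and 3.80 FPKM with control siRNA in line 2. As in ATXN2, the groups overlap in line 1 and not in line 2. Its log2 change was 0.04 with a 95% interval of -0.04 to 0.12 (limma adjusted p = 0.385). Over the 8 genes, the values of the siRNA groups did not overlap in 4 genes in line 1, beside 67.2% of all genes tested, and in 7 genes in line 2, beside 71.8%. The exact permutation test within the lines gave p = 0.167 for HTT, 0.111 for ATXN2, 0.222 for ATXN7 and 0.444 for TBP.

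FPKM divide by length, so the levels of the 8 genes can be set side by side. In control siRNA samples ATN1 averaged 40.8 ± 4.05 FPKM, at the 89.5th percentile of the genes tested. ATXN2 followed at 7.98 ± 0.29, ATXN1 at 7.20 ± 0.53, TBP at 5.90 ± 0.31, ATXN7 at 4.07 ± 0.29, ATXN3 at 4.05 ± 0.18, HTT at 3.60 ± 0.045 and CACNA1A at 1.63 ± 0.60 FPKM (SD, n = 4 each). ATXN2 and ATXN1, and likewise ATXN7 and ATXN3, differ by less than the sum of their SDs in these samples. These SDs include the difference between the lines. ATXN2 and ATXN1 averaged 7.73 and 7.66 FPKM in line 1, and 8.23 and 6.74 FPKM in line 2. In SUPT4H1 siRNA samples the averages were 44.8 ± 4.29 FPKM for ATN1, 8.24 ± 0.49 for ATXN2, 5.76 ± 0.98 for ATXN1, 5.64 ± 0.44 for TBP, 4.21 ± 0.30 for ATXN7, 3.85 ± 0.26 for HTT, 3.70 ± 0.37 for ATXN3 and 1.13 ± 0.45 for CACNA1A (SD, n = 4 each). ATXN1 and TBP then stood within their SDs over both lines of each other, as did ATXN7, HTT and ATXN3. By line the order of ATXN1 and TBP differed, at 6.61 and 5.78 FPKM in line 1 and 4.91 and 5.51 FPKM in line 2.

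The lines differed in 5 of the 8 genes. CACNA1A in line 2 had 51.9% of its line 1 level in control siRNA samples (1.11 ± 0.01 and 2.15 ± 0.02 FPKM, SD, n = 2 each). Averaged over the siRNAs, the log2 difference of line 2 minus line 1 was -0.55 for CACNA1A (limma adjusted p = 1.2e-06), -0.26 for ATXN1, -0.24 for ATN1 and -0.13 for ATXN7, and it was 0.10 for ATXN2 (adjusted p = 0.0059). Between the lines 70.5% of all genes passed, 29.7% higher and 40.7% lower in line 2. As each line is 1 source of cells, this compares these lines only.

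The genomic spans of the members run from 17.9 to 462.4 kb. Of the 670 tested genes that span 200 kb or more, the class of ATXN1 and CACNA1A, 18.5% rose and 29.4% fell, with a median log2 change of -0.02. Of the 1201 genes of 100 to 200 kb, the class of HTT, ATXN2 and ATXN7, 24.5% rose and 15.9% fell, with a median of 0.02. In the 4892 genes of 20 to 100 kb, the class of ATXN3, 28.2% rose and 13.7% fell. Of the 4671 genes under 20 kb, the class of ATN1 and TBP, 27.2% rose and 14.6% fell. Over the 8 genes, Spearman's rho between span and log2 change was -0.52, and over all 11434 genes it was -0.05; these are descriptions across genes of the same 8 libraries.

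**Figure D3:**
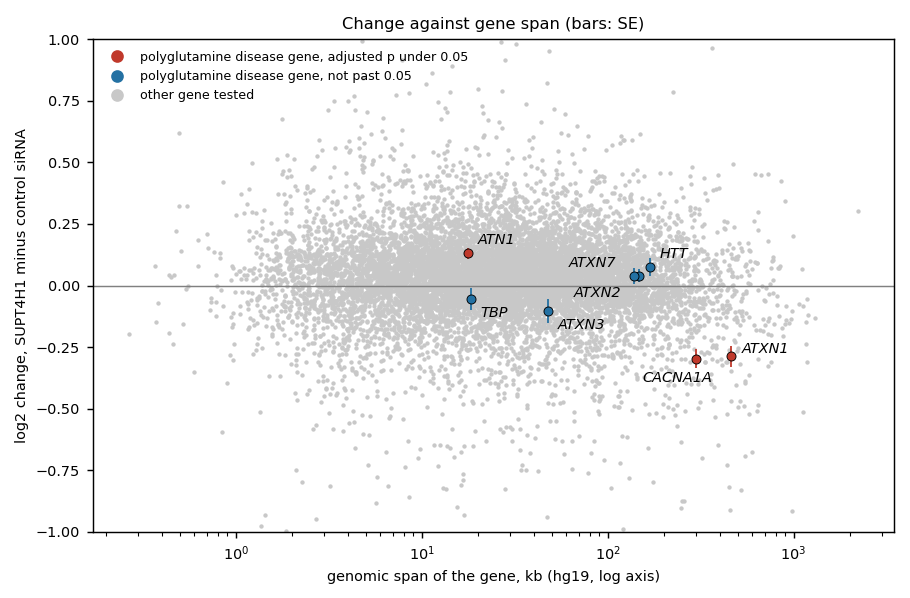
Log2 change of each tested gene, SUPT4H1 siRNA minus control siRNA, against its genomic span in kb on a log axis; grey points are all other genes within 1 log2 unit of 0 (20 genes tested lie beyond and are not drawn), and labelled points are the 8 genes with their SE, red where they passed. ATXN1 and CACNA1A, the longest of the 8, lie lowest at -0.29 and -0.30.

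The position of the repeat in the transcript that holds it followed a similar order, a description chosen after the values were seen. Over the 8 genes, Spearman's rho between the distance of the glutamine run from the transcript start and the log2 change was -0.79, with ATXN1 and CACNA1A at the far end. ATXN1 and CACNA1A are also the longest of the 8, so distance and span cannot be told apart for them. HTT and ATXN2, at 169.5 and 147.5 kb, hold the runs nearest to the transcript start, at 0.2 and 0.66 kb. Over the other 43 tested genes whose reference coding sequence holds 10 or more glutamine codons in a row, rho was -0.10 for this distance and -0.21 for the span. Between the length of the run and the change it was 0.41 over the 8 genes and -0.20 over the 43.

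**Figure D4:**
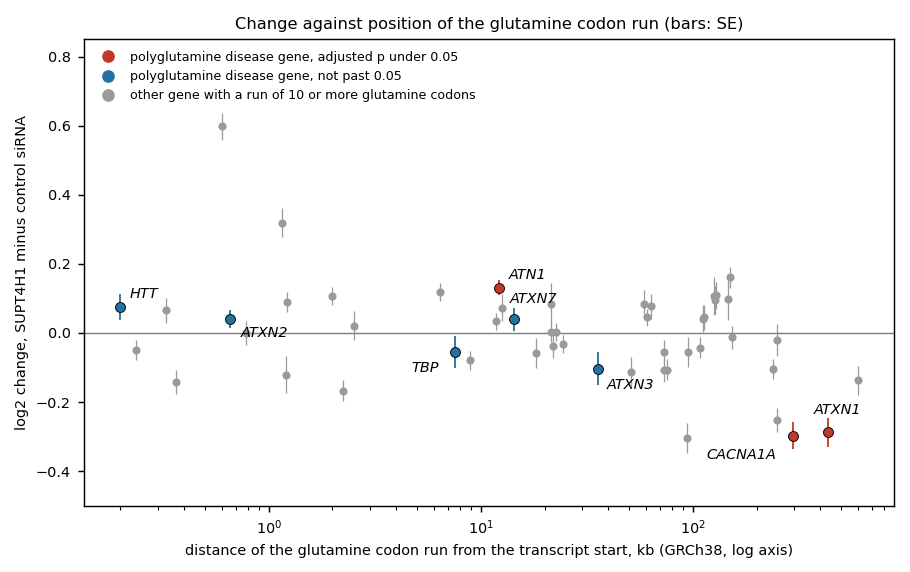
Log2 change, SUPT4H1 siRNA minus control siRNA, against the distance in kb of the longest glutamine codon run from the transcript start on a log axis, with SE; labelled points are the 8 genes (red where they passed, blue where not) and grey points the 43 other tested genes with such a run. The grey points at over 100 kb lie on both sides of 0.

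Of these 43 other glutamine tract genes, 6 rose and 9 fell (14.0% and 20.9%, beside 26.9% and 15.2% of all genes), with a median log2 change of 0.0022. RUNX2, the transcription factor of bone formation, had 1.52 ± 0.21 FPKM in SUPT4H1 siRNA samples and 2.12 ± 0.44 FPKM in control siRNA samples (SD, n = 4 each; log2 change -0.30, limma adjusted p = 6.66e-04, and 0.172 without the line term). MAML2, a Notch coactivator, had 5.60 ± 0.16 and 6.86 ± 0.30 FPKM (log2 change -0.25, adjusted p = 5.29e-04) in SUPT4H1 and control siRNA samples, and ARID1B, a subunit of the BAF chromatin remodeller, had 5.46 ± 0.43 and 6.25 ± 0.38 FPKM (log2 change -0.17). The largest rises were those of PHLDA1, at 29.9 ± 5.54 and 19.4 ± 3.46 FPKM in SUPT4H1 and control siRNA samples (log2 change 0.60, adjusted p = 9.12e-06), of the sialyltransferase ST6GALNAC5 (log2 change 0.32) and of the nuclear receptor coactivator NCOA3 (log2 change 0.16). A shorter list of tract genes named from general knowledge, which shares genes with the 43, had 21 tested. Of these 2 rose, NCOA3 and ARID1A (log2 change 0.15), and 5 fell (9.52% and 23.8%), with a median log2 change of -0.01. In ARID1A the scan of reference transcripts found no run of 10 or more glutamine codons.

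Of 40 listed partners and paralogues of the 8 proteins 35 were tested, of which 14 rose and 3 fell (40.0% and 8.57%, beside 26.9% and 15.2% of all genes tested), with a median log2 change of 0.03, as over all genes. Without the line term, where 3.56% of all genes rose and 1.78% fell, 1 partner rose and 0 fell, CACNB3 being the one (adjusted p = 0.0457). CACNB3, a beta subunit of calcium channels, had 9.49 ± 0.74 FPKM in SUPT4H1 siRNA samples and 7.83 ± 0.18 FPKM in control siRNA samples (log2 change 0.25, limma adjusted p = 0.00192). CACNA2D1, an auxiliary alpha-2-delta subunit of the channels, went the other way, with 4.20 ± 0.78 and 4.73 ± 0.81 FPKM (log2 change -0.14, adjusted p = 0.00787). HIP1R, a relative of the huntingtin interactor HIP1, and OPTN, an autophagy receptor that binds huntingtin, rose by 0.27 and 0.20 on the log2 scale. BTAF1, which removes TBP from DNA, and PABPC1, the poly(A)-binding protein that binds ataxin-2, fell by 0.13 and 0.10. After scaling by median ratios 9 partners rose and 5 fell, beside 2316 rises and 2310 falls among all 11434 genes tested.

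Of 21 chaperones and clearance factors known to act on polyglutamine proteins, 10 rose and 0 fell (47.6%, beside 26.9% rises among all genes), and without the line term 4 rose, where 3.56% of all genes did. HSPA1A, an inducible HSP70 that shares reads with a near-identical copy, had 16.6 ± 0.61 FPKM in SUPT4H1 siRNA samples and 12.4 ± 1.53 FPKM in control siRNA samples (log2 change 0.40, limma adjusted p = 5.37e-04). HSPH1, a nucleotide exchange factor for HSP70, and DNAJB1, a co-chaperone, rose by 0.28 and 0.26 on the log2 scale. Heat shock genes were known to be higher in these samples when the list was chosen.

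Of 13 modifiers of CAG repeat instability or of age at onset, 2 rose and 3 fell (15.4% and 23.1%, beside 26.9% and 15.2% of all genes tested). RRM2B, a ribonucleotide reductase subunit, had 31.9 ± 1.45 FPKM in SUPT4H1 siRNA samples and 24.7 ± 2.08 FPKM in control siRNA samples (log2 change 0.36, limma adjusted p = 1.75e-05, and 0.0232 without the line term). LIG1, DNA ligase 1, had 2.52 ± 0.23 and 1.90 ± 0.16 FPKM (log2 change 0.28). Among those that fell were the mismatch repair genes PMS1 and MSH6, by 0.09 and 0.088 on the log2 scale. Without the line term 1 of the 13 rose and 0 fell, where 3.56% and 1.78% of all genes did.

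Genes whose values followed those of the 3 called members most closely were sought over the 8 samples, on log2(FPKM + 1) after removal of each line's mean. The nearest to ATXN1 were SNED1 (Pearson r = 0.999) and SIPA1L2 (r = 0.998). SNED1 stood at 17.8 ± 12.8 FPKM in SUPT4H1 siRNA samples and 26.7 ± 14.3 FPKM in control siRNA samples (log2 change -0.71). The nearest to CACNA1A were FAM196B (r = 0.998) and EIF3D (r = 0.997), and to ATN1 they were ACLY (r = 0.999) and NACC1 (r = 0.997). With 8 samples and 11434 genes, such values of r are a description, and the samples share the siRNA contrast.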

How the data were processed

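Gene expression was measured by sequencing of polyA RNA in 8 fibroblast samples. The authors deposited a table per sample of FPKM per gene, each with an interval and a status, and its coordinates are on hg19 per the submitters' processing notes. Which aligner, quantification tool and annotation were used, and whether strand was, is not given in the sources used here. The number of fragments is unknown. Over the 8 genes each deposited interval reached 4.71 to 14.8% of the value to either side. Which errors these intervals cover is not given in the sources used here.

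Rows of microRNAs and small RNAs were dropped and rows of 1 symbol summed, which leaves 23228 symbols. Genes of mean FPKM 1 or more with status OK in every sample were tested, on the log2(FPKM + 1) scale, which understates changes of low genes, by 2-sided tests of limma (version 3.58.1, R 4.3.3) with a mean-variance trend. The line is the block in the test of both lines: deviations of samples of the same line from their siRNA means correlated at 0.883 to 0.9 across genes. Responses by line came from a fit of 4 group means. Glutamine codon runs were read from GENCODE 29 coding transcripts (GRCh38); of 65 genes with 10 or more such codons in a row, 56 besides the members have a row here. All 8 members are named; of each list the text names up to 3 genes per direction with the largest change among those that passed, and for each called member the 2 genes of highest r. Some genes that these rules would name are not reported here. The members and lists were chosen with earlier results of these data known. Alternatives were the line term left out, a block by line and replicate number, other pseudocounts, filters and scaling, no trend, symbols with several rows left out, and each sample left out. Tables and plots used Python 3.11.15, pandas 2.3.3, scipy 1.17.1 and matplotlib 3.10.9.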

Additional observations from a re-analysis of the deposited data

Results flagged for a closer look

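The change of ATXN1 after SUPT4H1 siRNA differed between the lines: the log2 change in line 2 minus that in line 1 was -0.20 (limma adjusted p = 0.0365), with -0.39 in line 2 and -0.19 in line 1. The fall had the same direction in both lines. Each of the 8 fits that left out 1 sample missed the threshold, with differences of -0.21 to -0.19. The reason was not tested.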

How the results depend on the processing

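Of 704 values under 16 alternatives, 648 kept their direction and their side of the threshold, or stayed within 1.5 times for counts. In the fit with no replicate block, in which line differences enter the spread, 610 genes were called (407 rises, 203 falls), 0 members rose and 0 fell, and ATXN1 (-0.29), ATN1 (0.13) and CACNA1A (-0.30) kept their size without passing. All of the 610 were among the 4809 called with the line as block. That fit gave 1 rise and 0 falls among partners, 0 and 1 among the shorter tract list, 1 and 1 among the 43 tract genes, 4 rises among chaperones, and 1 rise and 0 falls among repeat modifiers. A replicate block by line and number kept the calls of all 8 members (adjusted p = 0.00563 for ATXN1, 0.00911 for ATN1 and 0.00396 for CACNA1A) and called 4033 genes. Samples with the same number deviated together at r = 0.103 in line 1 and 0.0521 in line 2, and the labels give the number no meaning beyond a count.

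With the filter at mean FPKM 5, HTT, ATXN3, ATXN7 and CACNA1A were not tested, so 1 member fell, and 1 repeat modifier rose. Of the 7469 genes tested with this filter, 2464 rose and 1262 fell. Scaling by median ratios, which moves the median of all genes by less than 0.1, gave 2316 rises and 2310 falls among all 11434 genes. With it 9 partners rose and 5 fell, 1 gene of the shorter tract list rose, and the line 1 response of ATXN2 was -0.0069. With a pseudocount of 0.1 the difference of the responses of CACNA1A was -0.053. Without the mean-variance trend the line 2 response of HTT, 0.12, passed (adjusted p = 0.0445).

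Leaving out 1 sample gave 1 to 2 members that rose and 2 to 3 that fell over both lines. In the same fits 2487 to 2925 of all genes tested rose and 1395 to 1646 fell. The change over both lines ranged from 0.057 to 0.10 for HTT and from -0.14 to -0.057 for ATXN3, each passing in 1 of 8 such fits. Line 1 responses ranged from -0.023 to 0.076 for HTT, -0.024 to 0.078 for ATXN7, 0.10 to 0.15 for ATN1 and -0.16 to 0.0050 for TBP. Line 2 responses ranged from 0.10 to 0.15 for HTT, -0.23 to -0.015 for ATXN3 and -0.099 to 0.036 for TBP. Differences of the responses ranged from -0.21 to -0.19 for ATXN1, -0.15 to 0.070 for ATXN3, -0.027 to 0.075 for ATXN7, -0.011 to 0.033 for ATN1 and -0.037 to 0.13 for TBP. The shorter tract list had 1 to 3 rises and 3 to 5 falls, and the 43 tract genes 5 to 8 falls. The cause of these shifts was not tested. By the deposited intervals, CACNA1A and TBP were measured least precisely, with the widest of the 8 relative to their values.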
